A study of Mus musculus with 24 samples.

Results

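Mouse primary hepatocytes were exposed to glucagon or to insulin while the bile acid receptor FXR was being activated by the drug GW4064, and the 2 hormone states were compared gene by gene. The comparison uses 6 of the 24 arrays of the study: the 3 glucagon arrays and the 3 insulin arrays whose titles name the control hairpin shlacZ and GW4064, matched by experiment number 1 to 3. All 22180 genes that the platform annotation ties to a probe set with a single gene symbol were tested.

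The glucagon group received 100 nM glucagon and the insulin group 1 nM insulin. Both also received 2 µM GW4064, for 4 h, and both carried a hairpin RNA against lacZ (AdshlacZ, a control directed at a bacterial gene) at a multiplicity of infection of 5. The medium of every group held 100 nM dexamethasone, a synthetic glucocorticoid. Cells came from male C57Bl6J mice. Hepatocytes of 3 mice were pooled for each experiment, as were the technical replicates of a sample, and labelled DNA was prepared from 300 ng of total RNA. The 2 neighbouring conditions used below are shlacZ cells with glucagon or insulin and the solvent DMSO in place of GW4064, and cells with the hairpin shFOXA2.3, directed at the transcription factor FOXA2, with glucagon or insulin and GW4064. No group was left without a hormone, so a higher level under glucagon and a lower level under insulin cannot be told apart. The replicates are 3 experiments on pooled cells. In the main fit, p-values measure the spread between the 3 arrays of a group, taken over all 8 groups of the study. That fit does not use the pairing, so arrays that share a hepatocyte pool count as independent. The pairing enters only where the experiment is a block.

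Glucagon and insulin set opposite states of the hepatocyte. Glucagon signals through a G protein-coupled receptor, cAMP and protein kinase A to the transcription factor CREB and favours glucose production and amino acid breakdown, as in fasting. Insulin signals through receptor tyrosine kinase, IRS proteins and AKT, which keeps FOXO1 out of the nucleus, and also through the RAS and MAP kinase branch shared with growth factors. FXR (gene Nr1h4) is a nuclear receptor for bile acids that regulates bile acid export and synthesis, and GW4064 is a synthetic agonist of it.

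The deposited values are on the log2 scale, so a difference of 1 is a doubling. Array medians over all probe sets lay between 3.21 and 3.28 over the 24 arrays, and the median of all values was 3.25. A level near that median is close to the bulk of the weak signals of the array, and a fold change set against it reflects that floor as well as the gene. Replicates of the 2 groups correlated at r = 0.989 to 0.993 across genes, which are not independent replicates. Glucagon arrays correlated with insulin arrays almost as closely, at r = 0.984 to 0.99. At most 3 values were identical between any 2 replicates. Alb, the gene of albumin and a defining hepatocyte transcript, had a mean level of 13.1 in the glucagon group and 13.0 in the insulin group. The 12 hepatocyte markers had a median level of 9.41 under glucagon and 8.19 under insulin, while the median of their differences was 0.37. Pck1 and Tat, 2 of the 12 and also members of lists used below, passed the test as higher, beside 1.29% of all genes. With the experiment as a block, 6 of the hepatocyte markers were higher and 1 was lower, beside 3.91% and 4.5% of all genes. The 8 lymphocyte markers had a median level of 2.76 under glucagon and 2.74 under insulin. The median over the 10 Kupffer cell and macrophage markers was 2.86 under glucagon and 2.67 under insulin (2.75 to 3.08 over the glucagon arrays and 2.58 to 2.87 over the insulin arrays), and Cd68, also a macrophage marker, averaged 9.2 under glucagon and 9.14 under insulin. The 10 endothelial markers had a median level of 4.43 under glucagon and 4.35 under insulin and the 10 stellate markers 3.13 and 3.04. Across the Kupffer, stellate, endothelial, cholangiocyte, lymphocyte and erythroid lists 0 of 47 measured markers passed the limma test described next, beside 3.09% of all genes. Of the 47, 2 had an unadjusted p under 0.05, and 2 passed with the experiment as a block, beside 8.41% of all genes. Nothing is read from these counts about other cell types. In cultures of mixed cells, fewer cells of a type and less RNA per cell cannot be told apart, and the part that other cell types play in the results was not tested.

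With GW4064 present, 686 of 22180 genes (3.09%) passed an adjusted p of 0.05 between glucagon and insulin. Of these, 287 (1.29% of all genes) were higher under glucagon and 399 (1.8%) were lower. The largest rises were Pck1, Nr4a3, G6pc and Ppargc1a, and the largest falls Egr1, Map2k3os, Rrad and Hmga2-ps1. Differences beyond 1.5-fold were seen in 213 of the higher and 242 of the lower genes, and differences beyond 4-fold in 30 and 12. The sign was the same in all 3 experiments for 686 of 686 called genes, against 37.7% of all genes. The 2 groups of arrays did not overlap in any called gene, against a background of 16% of all genes. Genes chosen by a small p on these same arrays tend to show both traits, so neither is separate support for the calls. The test was limma, with Benjamini-Hochberg adjustment over all genes, and 2735 genes had an unadjusted p under 0.05.

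The size of the called set depended on single arrays and on the pairing. Without the glucagon array of experiment 1, 406 genes passed, 171 higher and 235 lower. Without the insulin array of experiment 1 the lower genes numbered 265, and without that of experiment 2 they numbered 259. Leaving out all 8 arrays of experiment 1 left 174 genes, and all 8 of experiment 2 left 246, each from a smaller fit. With the experiment as a block, 1865 genes passed (8.41%), 868 higher (3.91%) and 997 lower (4.5%), among them all 686. The called rises had a median difference of 0.96 in experiment 1, 0.83 in experiment 2 and 0.71 in experiment 3, and the called falls −0.68, −0.62 and −0.60.

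**Figure D1:**
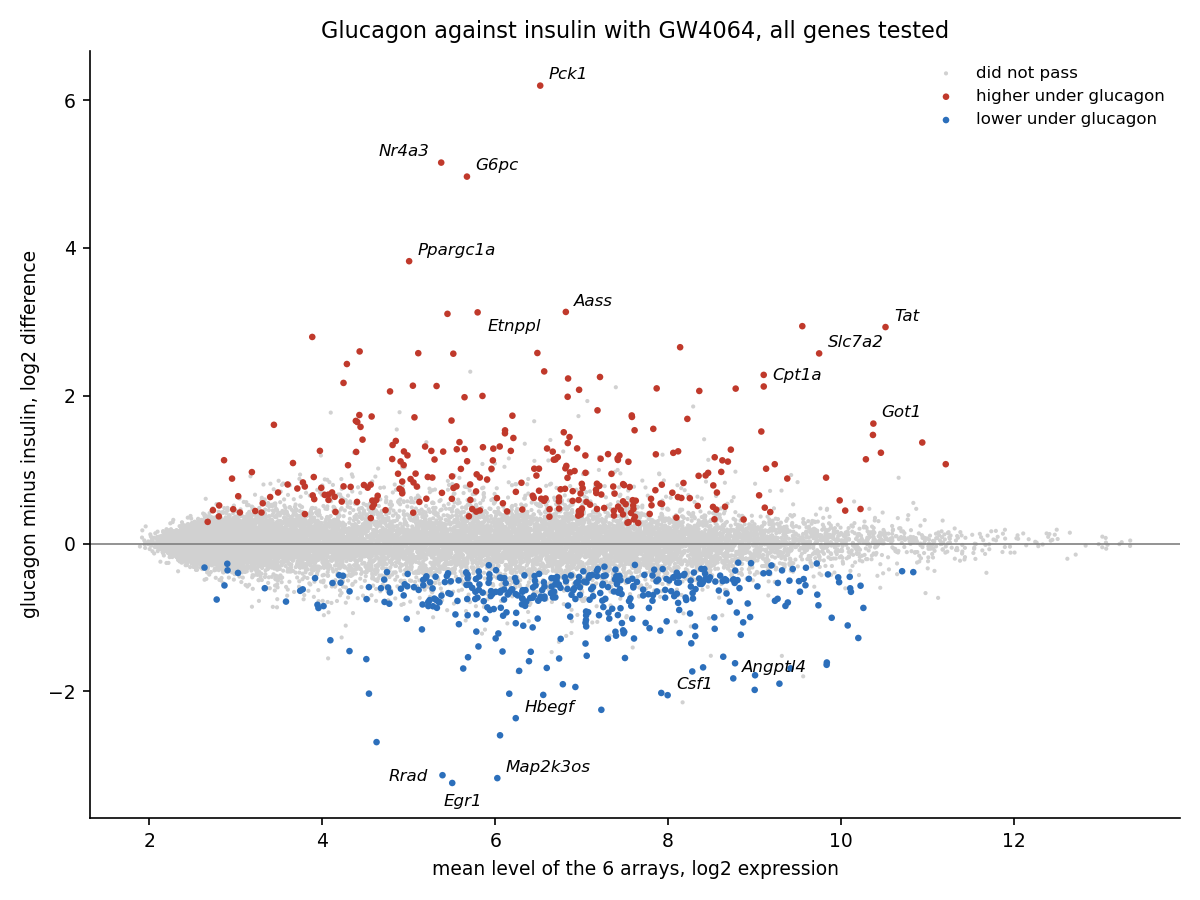
Difference between the 2 hormones (glucagon minus insulin, log2, vertical axis) against the mean level of the 6 arrays (log2, horizontal axis) for all 22180 genes tested, 1 point per gene. Red points are the 287 genes higher under glucagon, blue points the 399 lower, and grey points did not pass an adjusted p of 0.05 in limma; Pck1 stands at 6.20 and Egr1 at −3.24.

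The gene of phosphoenolpyruvate carboxykinase, Pck1, which catalyses the committed step from oxaloacetate into gluconeogenesis, showed the widest separation of any named gene. Its levels were 10.67, 8.48 and 9.70 in experiments 1 to 3 under glucagon, against 3.70, 3.07 and 3.50 under insulin. The insulin arrays lay near the median of all probe sets and the glucagon arrays far above it, with no overlap. The difference was 6.20 ± 0.59 (SE), a 73.3-fold higher signal, with an adjusted p of 1.52e-06 in limma. G6pc, the catalytic subunit of glucose-6-phosphatase that releases free glucose, had levels of 9.34, 7.30 and 7.83 under glucagon, against 3.27, 3.03 and 3.27 under insulin. All 3 insulin arrays were again at the floor, and the difference of 4.96 ± 0.46 had an adjusted p of 1.10e-06. Without the glucagon array of experiment 1, which was the highest, it was 4.37. Ppargc1a encodes the coactivator PGC-1α, which acts on the promoters of these enzymes. It had 6.87, 6.26 and 7.61 under glucagon, against 2.81, 2.67 and 3.81 under insulin, a difference of 3.82 ± 0.55 with an adjusted p of 0.000269. In both hormone states the experiment 3 array gave the highest Ppargc1a level.

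Of the 15 measured genes of the gluconeogenic list, 5 rose under glucagon and 0 fell, beside 1.29% and 1.8% of all genes. The list's median difference was 0.36, beside 0.00209 for all genes. The other 2 that rose were the aminotransferases Got1 (1.62 ± 0.12, adjusted p 6.71e-08) and Gpt2 (1.14 ± 0.17, adjusted p 0.000431), which feed carbon skeletons of amino acids into the pathway. Fbp1, the gene of fructose-1,6-bisphosphatase, had 7.70, 6.43 and 6.93 under glucagon, against 6.06, 4.96 and 5.98 under insulin. These arrays did not overlap and every experiment was higher under glucagon, but the difference of 1.35 ± 0.39 had an adjusted p of 0.0709. With the experiment as a block the adjusted p of Fbp1 was 1.58e-05, and without the glucagon array of experiment 2 the difference was 1.64 (adjusted p 0.0465). With only genes of mean level of at least 4 tested, Fbp1 had an adjusted p of 0.0371. Fbp1 passed in 4 of the 18 alternative limma fits, and its highest adjusted p among the 18 was 0.460. Pcx, which makes oxaloacetate from pyruvate, differed by 0.42 (adjusted p 0.713, or 0.0337 with the block), Gpt by 0.36, Mdh2 by 0.34 and Mdh1 by 0.29 (0.0252 with the block). With the block, 8 of the 15 genes rose, beside 3.91% of all genes. Members of this and the other lists were chosen with earlier results of these data known, which limits such comparisons with all genes.

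**Figure D2:**
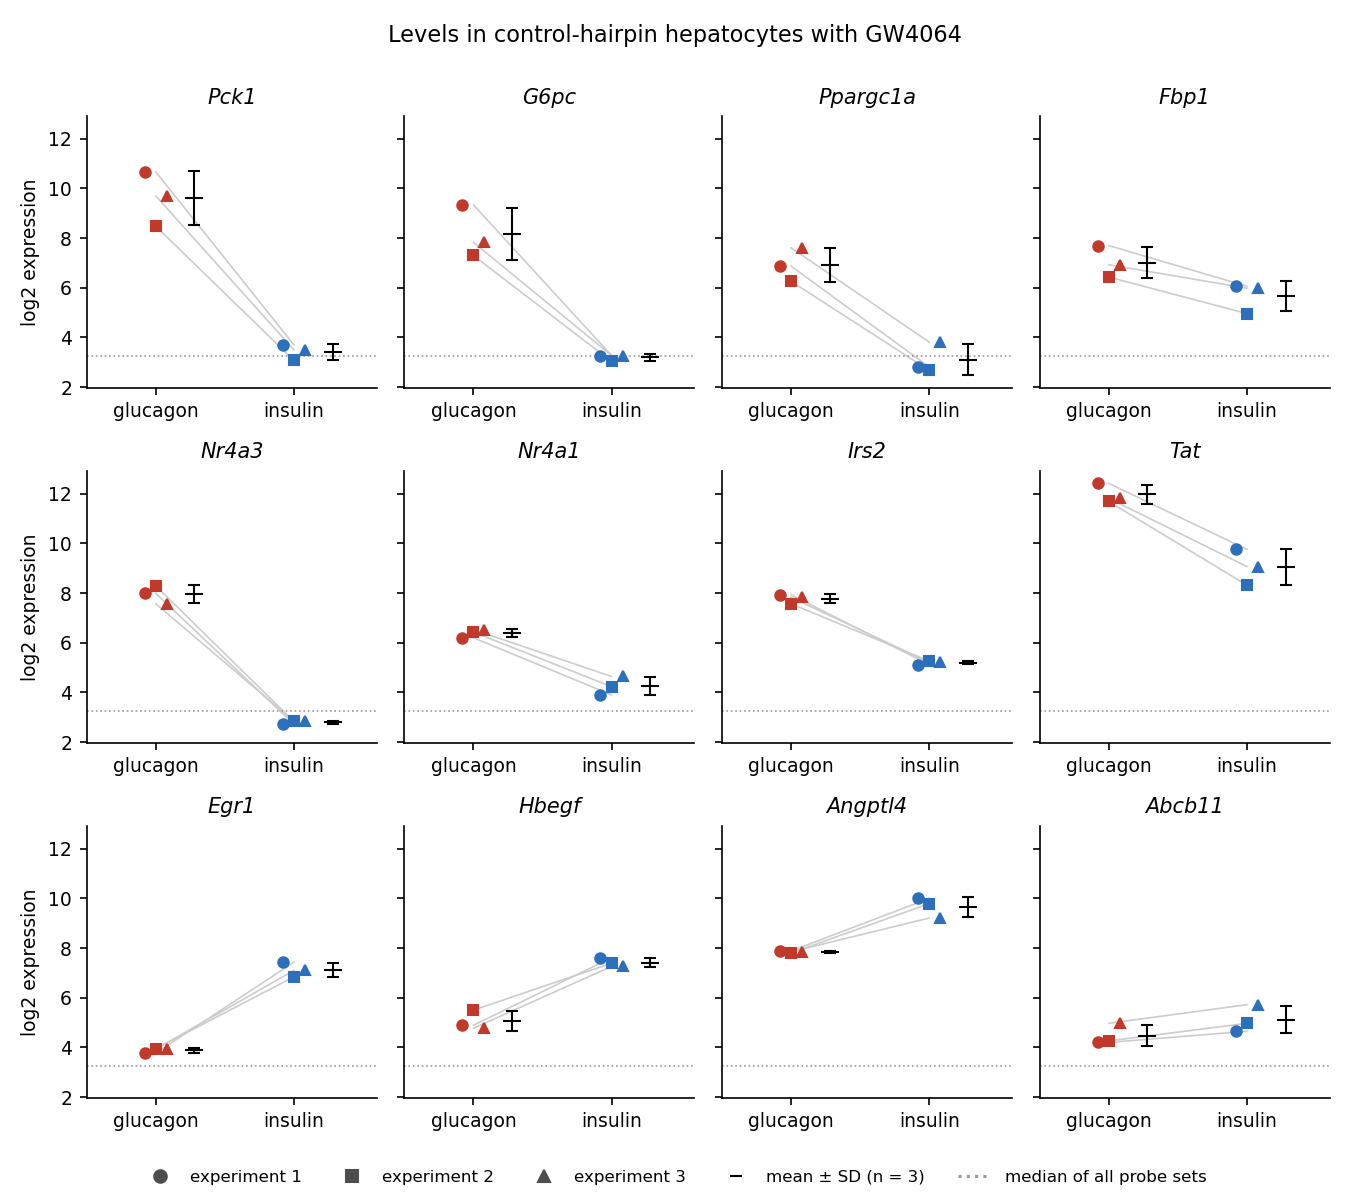
Log2 expression of 12 genes in the 3 glucagon arrays (red, left) and the 3 insulin arrays (blue, right) of control-hairpin cells with GW4064; symbols mark the experiment, grey lines join arrays of the same experiment, black marks give the mean ± SD (n = 3) and the dotted line is the median of all probe sets, 3.25. Pck1, G6pc, Ppargc1a and Nr4a3 lie near the dotted line under insulin, and Abcb11 overlaps between the groups.

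Early targets of cAMP and CREB were examined next. Nr4a3 and Nr4a1 encode orphan nuclear receptors that are induced within minutes to hours by cAMP. Nr4a3 had levels of 7.99, 8.29 and 7.57 under glucagon, against 2.72, 2.83 and 2.84 under insulin. The difference of 5.15 ± 0.16 varied little between experiments, and its adjusted p of 5.18e-14 was the smallest of the named genes. Nr4a1 had 6.20, 6.43 and 6.53 under glucagon, against 3.90, 4.23 and 4.64 under insulin, a difference of 2.13 ± 0.25 with an adjusted p of 2.13e-05. Rgs2, a regulator that shortens G protein signalling, had 5.0, 6.30 and 5.89 under glucagon, against 3.2, 3.08 and 3.12 under insulin. The insulin values of Rgs2 sat at the floor, the difference was 2.60 ± 0.42, and it was 1.30 when the gene's probe sets were averaged.

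In all, 7 of the 20 measured genes of the cAMP list rose and 1 fell, beside 1.29% and 1.8% of all genes. The list's median difference was 0.55. Sik1, a kinase that feeds back on the CREB coactivators, rose by 2.06 ± 0.15 with an adjusted p of 6.71e-08. Igfbp1, which binds insulin-like growth factors in plasma, rose by 1.47 ± 0.19, Crebrf by 1.19 ± 0.23, and Pde4b, a phosphodiesterase that breaks down cAMP, by 0.97 ± 0.16. Junb, a subunit of the AP-1 transcription factor, moved the other way, by −1.29 ± 0.29 with an adjusted p of 0.0131. That call was lost without the glucagon array of experiment 1 (difference −1.0, adjusted p 0.108), the insulin array of experiment 1 (−1.21, 0.0641) or the insulin array of experiment 2 (−1.09, 0.0920). Among members that did not pass, Nr4a2 differed by 0.72 (adjusted p 0.557, or 0.0114 with the block), Pde10a by 0.69 (0.0771, or 0.00326 with the block and 0.019 without the glucagon array of experiment 3), Ppp1r3c by 0.62 and Cited2 by −0.61 (0.00733 with the block). Pde10a passed in 3 of its 17 alternative limma fits, and its highest adjusted p among them was 0.614.

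Promoters are shown because CREB, the factor through which cAMP is known to act, binds the cAMP response element, a palindrome whose core is TGACG. Of the 12 genes that rose in the gluconeogenic and cAMP lists, 11 had a promoter in the RefSeq table used (GRCm38.p6, 250 bases before to 50 bases after the start), and 7 of these held TGACG on either strand. Shown 5′ to 3′ on the strand of the gene are the 3 of largest difference whose window held the core, and Nr4a1 as the close relative of Nr4a3. Capitals mark each TGACG, written CGTCA where it lies on the other strand.
Pck1: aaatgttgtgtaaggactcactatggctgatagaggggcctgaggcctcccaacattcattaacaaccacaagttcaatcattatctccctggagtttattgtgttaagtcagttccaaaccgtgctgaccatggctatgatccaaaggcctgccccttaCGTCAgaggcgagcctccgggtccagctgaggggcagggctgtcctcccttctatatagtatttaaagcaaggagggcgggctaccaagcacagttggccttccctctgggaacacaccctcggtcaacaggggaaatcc
Nr4a3: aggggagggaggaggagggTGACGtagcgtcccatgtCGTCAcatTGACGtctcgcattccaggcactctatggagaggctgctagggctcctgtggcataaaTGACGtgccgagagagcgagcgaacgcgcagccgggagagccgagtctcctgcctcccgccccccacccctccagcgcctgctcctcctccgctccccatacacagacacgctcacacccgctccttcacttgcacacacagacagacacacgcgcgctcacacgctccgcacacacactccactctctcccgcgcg
Ppargc1a: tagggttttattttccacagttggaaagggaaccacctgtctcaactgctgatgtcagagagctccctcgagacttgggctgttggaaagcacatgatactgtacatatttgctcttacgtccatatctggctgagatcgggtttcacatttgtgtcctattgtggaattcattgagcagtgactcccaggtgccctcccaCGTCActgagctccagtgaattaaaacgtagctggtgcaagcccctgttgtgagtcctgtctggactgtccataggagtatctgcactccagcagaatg
Nr4a1: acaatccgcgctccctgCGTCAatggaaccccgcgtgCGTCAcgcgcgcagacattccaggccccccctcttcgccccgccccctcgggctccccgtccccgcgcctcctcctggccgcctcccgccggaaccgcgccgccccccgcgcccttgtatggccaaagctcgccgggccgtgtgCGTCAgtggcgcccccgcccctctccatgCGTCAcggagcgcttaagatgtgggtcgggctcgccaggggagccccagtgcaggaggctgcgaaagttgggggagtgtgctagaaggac
The Pck1 window (chr2:173152823-173153122, plus strand) held a single match, 90 bases before the start. The Nr4a3 window (chr4:48045055-48045354, plus strand) held 4, at 231, 213, 205 and 147 bases before the start. That of Ppargc1a (chr5:51567676-51567975, minus strand) held 1, at 49 bases, and that of Nr4a1 (chr15:101266596-101266895, plus strand) held 4, at 233, 213, 69 and 40 bases. The core is common: it occurred in 20.8% of all 32851 promoters of the table and in 26.8% of the 16990 tested genes with a promoter there. It occurred in 34.2% of 234 genes called higher and in 38.4% of 320 genes called lower. These are matches of letters in a fixed window, and binding was not measured.

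Genes of the hormone pathways themselves changed in part. Irs2, the adaptor between the insulin receptor and phosphoinositide 3-kinase, had 7.93, 7.57 and 7.83 under glucagon, against 5.12, 5.26 and 5.21 under insulin. The groups were tight and far apart, with a difference of 2.58 ± 0.22 and an adjusted p of 5.66e-07. Adcy9, an adenylyl cyclase that makes cAMP, rose by 1.53 ± 0.23 with an adjusted p of 0.000481, and Foxo1, the transcription factor that AKT inactivates, by 0.54 ± 0.11 with an adjusted p of 0.00772. The Foxo1 call was lost without the glucagon array of experiment 2 (difference 0.47, adjusted p 0.0517), and with the gene's probe sets averaged it was 0.46 with an adjusted p of 0.192. Of 20 measured genes of the signalling list, these 3 rose and 0 fell, beside 1.29% and 1.8% of all genes. The list's median difference was 0.18. The largest differences that did not pass were Irs1 at 0.91 (adjusted p 0.142, or 0.0497 with the block), whose insulin arrays lay at the floor, Trib3 at −0.58 (0.0257 with the block), Trib1 at −0.58 and Foxo3 at 0.57 (0.0365 with the block). Without the glucagon array of experiment 3, Irs1 differed by 1.21 with an adjusted p of 0.0469. Irs1 passed in 2 of its 17 alternative limma fits. With the block, 7 of the list rose and 1 fell, beside 3.91% and 4.5% of all genes.

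In amino acid breakdown and the transport that serves it, 5 of 21 measured genes were higher and 0 were lower. The median difference was 0.55, and of all genes 1.29% were higher and 1.8% lower. Tat, tyrosine aminotransferase, a classical target of glucocorticoids and glucagon in liver, had 12.42, 11.69 and 11.82 under glucagon, against 9.76, 8.32 and 9.07 under insulin. Its difference was 2.93 ± 0.51, with an adjusted p of 0.00185. Slc7a2, a carrier of cationic amino acids, had 11.10, 10.92 and 11.07 under glucagon, against 8.57, 8.74 and 8.07 under insulin, a 5.95-fold higher signal. Slc25a15, the mitochondrial ornithine carrier of the urea cycle, rose by 2.66 ± 0.22 with an adjusted p of 2.73e-07. Etnppl, a phospholyase acting on ethanolamine phosphate, rose by 3.13 ± 0.36, and Aass, the bifunctional enzyme that begins lysine breakdown, by 3.13 ± 0.66. The levels of Aass were 8.37, 7.80 and 8.98 under glucagon, against 4.86, 4.72 and 6.17 under insulin, and its call was lost without the insulin array of experiment 2 (difference 2.87, adjusted p 0.0511). Cps1 and Arg1, 2 enzymes of the urea cycle, had large standard errors in the unpaired fit (0.72 and 1.05) and did not pass there. Cps1 had 10.41, 9.04 and 10.20 under glucagon, against 9.42, 7.79 and 9.67 under insulin, a difference of 0.93 ± 0.72 with an adjusted p of 0.725. Arg1, arginase, differed by 1.12 (0.801), Tdo2, which begins tryptophan breakdown, by 1.37 (0.278), and Hgd by 0.66 (0.633). With the block, the adjusted p was 0.0279 for Cps1, 0.00190 for Arg1 and 0.0309 for Tdo2. In that fit 11 of the 21 genes rose, beside 3.91% of all genes.

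The remaining genes among the 15 largest rises came from outside these lists. Bhmt2, a methyltransferase that makes methionine from homocysteine, rose by 3.11 ± 0.33 with levels of 7.19, 7.20 and 6.61 under glucagon, against 4.25, 3.21 and 4.22 under insulin. Adh1, the alcohol dehydrogenase of liver, rose by 2.94 ± 0.58, with levels of 11.14, 10.80 and 11.13 under glucagon, against 8.50, 6.88 and 8.87 under insulin. The low insulin value of Adh1 belonged to experiment 2: without that array the difference was 2.34 (adjusted p 0.0458), and with the gene's probe sets averaged it was 1.58. The transcripts Gm15998 and AA986860, to which no role is given here, rose by 2.79 ± 0.56 and 2.58 ± 0.16. For Gm15998 the glucagon array of experiment 2 was the low one at 4.09, against 5.85 and 5.91 in the others, and without it the difference was 3.39.

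Lipid genes were taken in 3 lists. Cpt1a, the carnitine palmitoyltransferase that controls entry of fatty acids into mitochondria, had 10.34, 10.18 and 9.99 under glucagon, against 8.15, 7.99 and 7.99 under insulin. The difference of 2.12 ± 0.14 had an adjusted p of 1.05e-08. Angptl4, a secreted inhibitor of lipoprotein lipase, was placed in the same list as a target of PPARα and fell, with 7.88, 7.80 and 7.85 under glucagon, against a mean of 9.66 ± 0.41 (SD, n = 3) under insulin. No array overlapped between the groups, and Angptl4 differed by −1.82 ± 0.18 (adjusted p 1.97e-06). Angptl8, a related secreted protein known to be induced by insulin and feeding, was among the 15 largest falls at −1.94 ± 0.34 (adjusted p 0.00205). In the list of fatty acid oxidation and ketogenesis, 2 of 16 measured genes rose and 1 fell, beside 1.29% and 1.8% of all genes. The list's median was 0.12. The other that rose was Cpt2, the partner enzyme of the inner membrane, by 0.38 ± 0.10 (adjusted p 0.0358). Its call was lost without the glucagon array of experiment 1 or 2 (differences 0.31 and 0.35, adjusted p 0.190 and 0.137) or the insulin array of experiment 2 or 3 (0.38 and 0.30, adjusted p 0.101 and 0.182). Plin2, a coat protein of lipid droplets, differed by −0.74 (adjusted p 0.238, or 0.000107 with the block), Ppara by 0.40, Fgf21 by −0.38 and Acadm by 0.21.

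In the lipogenesis list, with a median of 0.17, 2 of 16 genes rose and 0 fell, beside 1.29% and 1.8% of all genes. Lpin1, a phosphatidate phosphatase that is also known as a coactivator, rose by 1.49 ± 0.33 (adjusted p 0.0118), and Gpam, which begins glycerolipid synthesis, by 0.88 ± 0.23 (adjusted p 0.0398). Lpin1 did not pass without the glucagon array of experiment 1 (difference 1.20, adjusted p 0.0949) or the insulin array of experiment 2 (1.18, 0.0920). Gpam did not pass without any 1 of the 3 glucagon arrays (adjusted p 0.0829, 0.123 and 0.108 for experiments 1 to 3) or the insulin array of experiment 1 or 2 (0.153 and 0.151). Fatty acid synthase, Fasn, had 8.68, 8.52 and 8.35 under glucagon, against 8.47, 8.23 and 8.0 under insulin, a difference of 0.28 (adjusted p 0.658, or 0.0315 with the block). Elovl5 differed by 0.42 (adjusted p 0.0520, or 0.00406 with the block). Without the glucagon array of experiment 3 or the insulin array of experiment 1 the adjusted p of Elovl5 was 0.0363 and 0.00695. Elovl5 passed in 6 of the 18 alternative limma fits, and its highest adjusted p among the 18 was 0.534. Acly differed by 0.35 (0.0117 with the block) and Elovl6 by 0.33. With the block 5 of the list rose and 0 fell, beside 3.91% of all genes higher. In the cholesterol list, with a median of 0.37, 1 of 12 genes rose and 0 fell, beside 1.29% and 1.8% of all genes. The gene that rose was Pmvk, phosphomevalonate kinase (1.12 ± 0.19, adjusted p 0.00147). With the block 7 of 12 rose and 0 fell, beside 3.91% and 4.5% of all genes. Insig1, which retains the SREBP precursors in the endoplasmic reticulum, differed by 0.85 (adjusted p 0.537, or 3.59e-05 with the block), Lss by 0.71 (0.00275 with the block), Sqle by 0.55 (0.000912) and Fdps by 0.40 (0.0155).

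**Figure D3:**
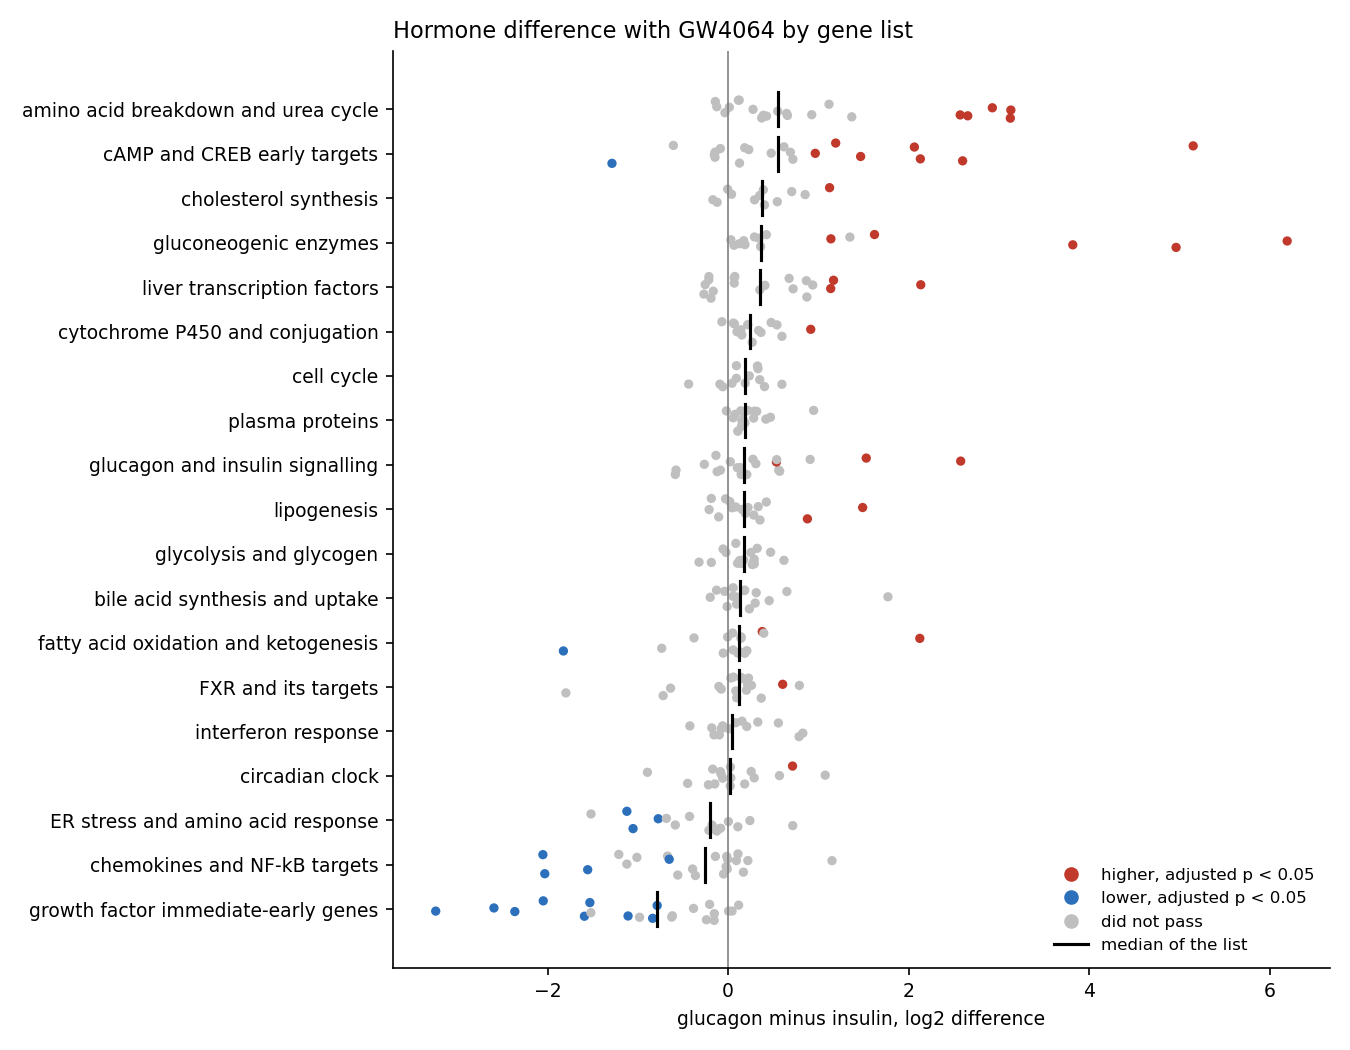
Difference between glucagon and insulin with GW4064 (log2, horizontal axis) for every measured gene of 19 lists (rows), 1 point per gene. Red and blue points passed an adjusted p of 0.05 in limma as higher or lower, grey points did not pass, and the black bar is the list's median, which runs between −0.79 for growth factor immediate-early genes and 0.55 for the amino acid list.

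The immediate-early response to growth factors, which held 4 of the 15 largest falls, is driven by receptor tyrosine kinases through MAP kinases and serum response factor. Egr1, a zinc finger transcription factor of this response, had 3.77, 3.95 and 3.93 under glucagon, against 7.43, 6.84 and 7.10 under insulin. The glucagon arrays lay near the floor, the groups were well apart, and the difference was −3.24 ± 0.20, a 9.44-fold lower signal under glucagon with an adjusted p of 8.95e-09. Hbegf, a ligand of the EGF receptor, had 4.89, 5.50 and 4.77 under glucagon, against 7.61, 7.39 and 7.26 under insulin (−2.36 ± 0.16, adjusted p 2.98e-08). Dusp6, the phosphatase that switches off ERK, differed by −2.05 ± 0.37 (adjusted p 0.00253), and by −1.15 with its probe sets averaged. Phlda1 had 3.57, 5.32 and 5.38 under glucagon, against 7.66, 7.36 and 7.04 under insulin. Its difference of −2.59 was −2.0 without the low glucagon array of experiment 1.

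Of 21 measured genes of the immediate-early list, 9 fell and 0 rose, beside 1.8% and 1.29% of all genes. The list's median was −0.79. Ier2 fell by 1.59, Plaur, the urokinase receptor, by 1.53, Klf6 by 1.11, Myc by 0.84 and Spry4, an inhibitor of the same MAP kinase path, by 0.79. Members that did not pass were Ier3, with a difference of −1.52 and an adjusted p of 0.215, Srf at −0.98 (0.182, and 7.33e-06 with the block), Jun at −0.62 (0.00886 with the block) and Dusp5 at −0.62. Outside this list the 15 largest falls included Rrad, a small GTPase, with 3.39, 4.17 and 3.91 under glucagon, against 7.35, 7.51 and 6.01 under insulin (−3.13 ± 0.47, adjusted p 0.000464). Map2k3os, an antisense transcript of a MAP kinase kinase gene, had 4.32, 3.91 and 5.08 under glucagon, against 7.60, 7.50 and 7.74 under insulin (−3.17 ± 0.38, adjusted p 3.09e-05). The kinase-related protein Stk40 fell by 2.02, the RAS effector Rin1 by 1.90 and Frmd6, a FERM domain protein, by 2.25.

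Several large falls kept their direction but lost their call when a single array was left out. F3, tissue factor, had 6.86, 8.33 and 8.84 under glucagon, against 10.09, 10.27 and 9.61 under insulin (−1.98 ± 0.44, adjusted p 0.0123). The low value came from experiment 1, and without that glucagon array the difference was −1.41 (adjusted p 0.0949). Without the insulin array of experiment 1 or 2 the adjusted p of F3 was 0.0521 and 0.0660. Fhl2, a LIM domain cofactor, fell by 2.03 and did not pass without the glucagon array of experiment 1 (difference −1.75, adjusted p 0.0605). Hmga2-ps1, a pseudogene of Hmga2, fell by 2.69 and did not pass without the glucagon array of experiment 1 (adjusted p 0.0650) or the insulin array of experiment 1 or 2 (0.0660 and 0.0770). Because a pseudogene is nearly identical to its parent, its signal may include that of Hmga2. Without the insulin array of experiment 3 its difference was −3.31.

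Inflammatory genes were mixed, and the chemokine and NF-kB list had a median of −0.25. Of its 22 measured members 4 were lower and 0 higher, beside 1.8% and 1.29% of all genes. They were Csf1, the macrophage growth factor (−2.05 ± 0.55, adjusted p 0.0475), Il23a, a cytokine subunit (−2.03 ± 0.42, 0.00720), Zfp36, which destabilises cytokine mRNAs (−1.56 ± 0.34, 0.0108), and Relb, an NF-kB subunit (−0.65 ± 0.14, 0.00863). Csf1 had 6.84, 7.08 and 6.99 under glucagon, against 9.71, 9.70 and 7.66 under insulin. The experiment 3 insulin array of Csf1 was thus much closer to the glucagon arrays, and without it the difference was −2.73. The Csf1 call was lost without any 1 of the glucagon arrays (adjusted p 0.154, 0.110 and 0.106 for experiments 1 to 3) or the insulin array of experiment 1 or 2 (0.214 and 0.225). Il23a had 3.31, 3.50 and 3.76 under glucagon, against 6.63, 5.65 and 4.39 under insulin, and did not pass without the insulin array of experiment 1 (difference −1.49, adjusted p 0.0532). Relb did not pass without the glucagon or the insulin array of experiment 2 (adjusted p 0.0619 and 0.0517), nor Zfp36 without the glucagon array of experiment 2 or the insulin array of experiment 1 (0.0731 and 0.0821).

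In experiment 3 the sign was opposite to that of experiments 1 and 2 for 3 members that did not pass, Cxcl1, Icam1 and Tnfaip3. Cxcl1 had 4.81, 5.37 and 8.64 under glucagon, against 7.74, 7.76 and 6.96 under insulin, so that it was lower under glucagon in experiments 1 and 2 and higher in experiment 3 (difference −1.21 ± 0.82, adjusted p 0.658). Icam1, an adhesion molecule, had 6.76, 7.72 and 8.62 under glucagon, against 9.30, 9.40 and 7.76 under insulin. Tnfaip3, an inhibitor of NF-kB signalling, had 6.93, 7.81 and 9.16 under glucagon, against 9.21, 9.43 and 8.29 under insulin. Nfkbiz, which was higher under glucagon in every experiment, is an atypical inhibitor of NF-kB and had 6.04, 6.44 and 7.73 under glucagon, against 5.85, 5.64 and 5.25 under insulin, with a difference of 1.15 (adjusted p 0.123, or 0.0379 with the block).

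Stress genes that respond to amino acid shortage and unfolded proteins were lower in part, with a median of −0.19. Of 16 measured, 3 were lower and 0 higher, beside 1.8% and 1.29% of all genes. Ddit3, which encodes CHOP, had 7.73, 8.30 and 7.22 under glucagon, against 8.88, 8.59 and 9.14 under insulin (−1.12 ± 0.25, adjusted p 0.0128). The stress-induced inhibitor of mTORC1 Sesn2 fell by 1.05, and Ppp1r15a, the phosphatase subunit that restores translation, by 0.77. Ddit3 did not pass without the glucagon array of experiment 1 or 3 (adjusted p 0.0541 and 0.0837) or the insulin array of experiment 3 (0.0704), nor Sesn2 without the insulin array of experiment 1 (difference −0.88, adjusted p 0.0588). Atf3 had 7.02, 7.84 and 8.34 under glucagon, against 9.09, 8.70 and 9.96 under insulin, a difference of −1.52 ± 0.47 with an adjusted p of 0.102 (blocked by experiment, 4.49e-05). Dnajb9, a chaperone of the endoplasmic reticulum, differed by 0.72 (adjusted p 0.746, or 0.00223 with the block), Nupr1 by −0.68 (0.00216 with the block) and Trib3 by −0.58. With the block, 7 of the list fell and 1 rose, beside 4.5% and 3.91% of all genes.

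Among liver transcription factors, with a median of 0.35, 3 of 19 rose and 0 fell, beside 1.29% and 1.8% of all genes. Klf15, a factor induced by fasting and glucocorticoids, had 6.80, 5.90 and 5.65 under glucagon, against 3.29, 3.70 and 4.95 under insulin (2.14 ± 0.41, adjusted p 0.00403). Foxa2, the target of the other hairpin, had 7.48, 7.33 and 7.11 under glucagon, against 6.14, 6.07 and 6.21 under insulin, and rose by 1.17 ± 0.14 with an adjusted p of 4.61e-05. Its relative Foxa1 had 7.42, 7.07 and 7.30 under glucagon, against 6.21, 6.02 and 6.15 under insulin (1.14 ± 0.11, adjusted p 1.96e-06). The signal was 2.25-fold higher for Foxa2 and 2.2-fold higher for Foxa1, and neither gene overlapped between the groups. Hnf4a, a nuclear receptor central to hepatocyte identity, differed by 0.94 (adjusted p 0.112, or 0.000664 with the block), Prox1 by 0.87, Onecut1 by 0.87 and Nr1i2 by 0.72. With the block, 6 of the 19 rose, beside 3.91% of all genes.

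In the unpaired fit, genes of the FXR pathway passed at a share near that of all genes (3.09%). Of 18 measured genes of FXR and its targets, 1 rose, 0 fell and the median was 0.12, while of 16 genes of bile acid synthesis and uptake 0 passed in limma, 3 had an unadjusted p under 0.05 and the median was 0.14. Slc51b, an FXR target, lies on a probe set of several genes and was not tested. Nr1h4 itself had 5.39, 5.04 and 4.22 under glucagon, against 5.85, 5.48 and 5.49 under insulin. The 2 groups just failed to overlap, and the difference of −0.72 ± 0.27 had an adjusted p of 0.222. The gene that rose was Sdc1, a heparan sulphate proteoglycan (0.61 ± 0.15, adjusted p 0.0315). Its call was lost without the glucagon array of experiment 1 or 2 (adjusted p 0.142 and 0.15) or any 1 of the insulin arrays (0.130, 0.0853 and 0.0591 for experiments 1 to 3). Slco1a4, an uptake carrier of organic anions and bile acids, had 6.08, 4.26 and 4.61 under glucagon, against 3.33, 3.16 and 3.15 under insulin, a difference of 1.77 ± 0.55 with an adjusted p of 0.0963 (blocked by experiment, 0.00371). Slc27a2 differed by 0.65 (0.00926 with the block), Abcc2 by 0.46 (0.00226) and Nr5a2 by 0.31. With the block, 3 of the 18 genes of the FXR list rose and 2 fell, and 3 of the 16 bile acid genes rose. These counts stand beside 3.91% of all genes higher and 4.5% lower with the block.

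Abcb11 encodes the bile salt export pump and is a classical FXR target. Its levels were 4.20, 4.26 and 4.97 under glucagon with GW4064, against 4.65, 4.97 and 5.72 under insulin with GW4064. The groups overlapped, although every experiment was lower under glucagon, by −0.45, −0.71 and −0.75. The mean difference of −0.64 ± 0.41 had an adjusted p of 0.618 (blocked by experiment, 0.00617). With DMSO the Abcb11 levels were 3.54, 4.05 and 4.68 under glucagon, against 4.62, 5.10 and 5.87 under insulin, a difference of −1.11 ± 0.41 with an adjusted p of 0.155. The hormone difference with GW4064 minus that with DMSO was 0.47, with a 95% interval from −0.73 to 1.68 in the unpaired fit. Blocked by experiment, this interval was 0.051 to 0.90 (unadjusted p 0.0301), and the gap was positive in 3 of 3 experiments. Over all genes the blocked limma test gave Abcb11 an adjusted p of 1.00.

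Osgin1, an oxidative stress response gene reported as an FXR target, had 9.26, 8.88 and 7.85 under glucagon with GW4064, against 11.25, 10.33 and 9.80 under insulin with GW4064. Glucagon arrays were lower in every experiment and did not overlap the insulin arrays. The difference of −1.80 ± 0.49 had an adjusted p of 0.0507 (blocked by experiment, 7.32e-09). Osgin1 differed, without the insulin array of experiment 3, by −2.13 (adjusted p 0.0384). With only genes of mean level of at least 4 tested its adjusted p was 0.0269. Osgin1 passed in 5 of the 18 alternative limma fits, and its highest adjusted p among the 18 was 0.422. With DMSO its levels were 8.07, 7.37 and 7.30 under glucagon, against 10.74, 9.78 and 9.20 under insulin, a difference of −2.33 with an adjusted p of 0.00680. GW4064 minus DMSO was 1.08 under glucagon and 0.55 under insulin, and the difference of the hormone differences, 0.53, had a 95% interval from −0.92 to 1.98 unpaired, and from 0.16 to 0.90 blocked by experiment (unadjusted p 0.00691). The gap of Osgin1 was positive in experiments 1 and 2 and near 0 in experiment 3, and its blocked adjusted p over all genes was also 1.00 in limma. Nr0b2, the FXR-induced repressor SHP, was added after its values were seen. It had 3.45, 3.74 and 2.94 under glucagon with GW4064, against 3.37, 3.45 and 3.14 under insulin with GW4064, all close to the floor. GW4064 minus DMSO was 0.37 under glucagon and 0.43 under insulin for Nr0b2, and the hormone difference was 0.06. Klb, the coreceptor of FGF19 and FGF21, differed by 0.79 between the hormones with GW4064 (adjusted p 0.117, or 0.0130 with the block).

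**Figure D4:**
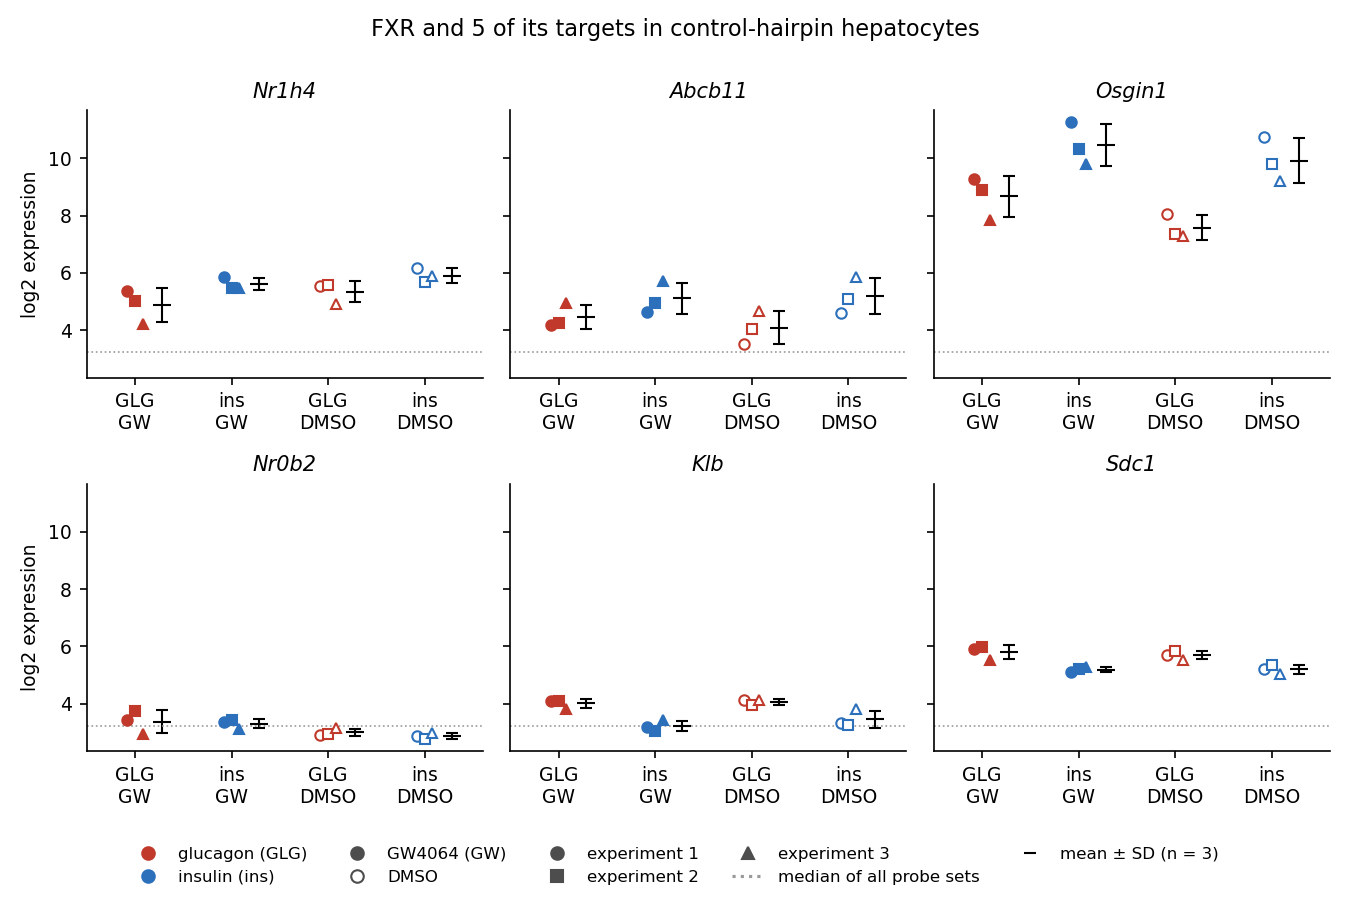
Log2 expression of Nr1h4 and 5 genes listed as its targets in the 4 groups of control-hairpin cells: glucagon (GLG, red) and insulin (ins, blue) with GW4064 (GW, filled) or DMSO (open). Symbols mark the experiment, black marks give the mean ± SD (n = 3) and the dotted line is the median of all probe sets; Osgin1 is lower under glucagon with both GW4064 and DMSO, and Nr0b2 lies close to the dotted line in all groups.

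The remaining lists also had unpaired shares of called genes near the 3.09% of all genes, from which nothing is read about them. Of 17 genes of glycolysis and glycogen, 17 plasma proteins, 14 interferon response genes and 13 cell cycle genes, 0 passed in the unpaired limma fit, with medians of 0.17, 0.19, 0.05 and 0.19. In the same order, 1, 0, 2 and 1 of these genes had an unadjusted p under 0.05. With the block, 2 genes of each of these lists rose, beside 3.91% of all genes. The largest differences in each were Ppp1r3c at 0.62 for glycogen, Fga, a fibrinogen chain, at 0.95 (adjusted p 0.00394 with the block), Rsad2 at 0.83 (0.00102) for interferon and Cdk1 at 0.60 for the cell cycle. In the circadian list 1 of 17 rose, Rora, a nuclear receptor of the clock, with 6.84, 7.05 and 6.70 under glucagon, against 6.03, 6.16 and 6.25 under insulin (0.71 ± 0.11, adjusted p 0.000422). Cry2, a clock repressor, differed by 1.08 (adjusted p 0.115, or 5.79e-06 with the block), Nr1d1 by −0.89 (0.00238 with the block), Nr1d2 by 0.57 (0.00181) and Ciart by −0.45 (0.0458). Without the insulin array of experiment 2, Ciart differed by −0.57 with an adjusted p of 0.0451. Ciart passed in 2 of the 18 alternative limma fits. With the block, 4 of the 17 clock genes rose and 2 fell, beside 8.41% of all genes called. In the list of cytochrome P450 and conjugation enzymes 1 of 14 rose, Alas1, which begins haem synthesis, by 0.92 ± 0.16 with an adjusted p of 0.00155. Sult1a1 differed by 0.60, Ugt2b5 by 0.54, Cyp2d9 by 0.48 and Cyp2f2 by 0.36. Sox9, which marks cholangiocytes and was added after its values were seen, had 5.95, 6.55 and 7.60 under glucagon, against 8.50, 7.79 and 7.55 under insulin (−1.25 ± 0.44, adjusted p 0.172, and 0.0479 with the block). Without the glucagon array of experiment 3, Sox9 differed by −1.70 with an adjusted p of 0.0486. Sox9 passed in 3 of the 18 alternative limma fits.

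Whether FXR activation alters the hormone response was asked by setting the hormone difference with GW4064 beside that with DMSO. The 2 comparisons share no array but share the hepatocyte pools of each experiment. With DMSO, 1039 genes passed (4.68%), 379 higher (1.71%) and 660 lower (2.98%), and 571 of them passed with GW4064 in the same direction, 230 higher and 341 lower. This is 83.2% of the GW4064 list and 55% of the DMSO list, and 0 genes passed in opposite directions. A further 115 genes passed with GW4064 only, of which 94 had the sign of their GW4064 difference in all 3 DMSO experiments. The 686 genes had the same sign of the mean difference with DMSO in 680 cases. The share of all genes that keep their sign is not given here, so nothing is read from these sign counts. A test of the difference itself called 0 of 22180 genes (0%) in limma, with and without the block. An unadjusted p under 0.05 was found for 618 genes (2.79%), and for 997 with the block. Both counts lie below the share of 0.05 that such p-values would give with no difference in any gene. That test was less precise, with a median standard error of 0.178 over genes, against 0.126 for the hormone difference.

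The leading genes of the hormone response had much the same differences with GW4064 and with DMSO, with intervals, from the unpaired fit unless stated, that remained wide for some. Pck1 differed by 6.20 with GW4064 and 6.06 with DMSO, and the 95% interval of the difference between them ran from −1.61 to 1.88. For G6pc the values were 4.96 with GW4064 and 5.39 with DMSO, with an interval from −1.78 to 0.93. Nr4a3 differed by 5.15 with GW4064 and 5.20 with DMSO, and its interval was narrow, from −0.52 to 0.43. Egr1 differed by −3.24 with GW4064 and −3.30 with DMSO, with an interval from −0.53 to 0.65, and Cpt1a by 2.12 with GW4064 and 2.13 with DMSO, with an interval from −0.41 to 0.40. Fbp1 differed by 1.35 with GW4064 and 0.88 with DMSO, and its interval ran from −0.68 to 1.62, or from −0.028 to 0.96 blocked by experiment. The smallest unadjusted p in this test belonged to Olfr214, Gpr149, Asphd1 and Epp13, with differences of 0.53, −0.61, 0.49 and −0.57. All 4 had levels under 3 with both hormones, close to the floor.

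Genes called between the hormones in shFOXA2.3 cells with DMSO were used to compare the size of the responses. The arrays of that contrast lie outside both comparisons, but the fit took its spread from all 24 arrays. These arrays also share the hepatocyte pools and were treated with DMSO, so the choice is not neutral between GW4064 and DMSO. Among 470 genes called higher in shFOXA2.3 cells with DMSO, the median difference was 0.58 with GW4064 and 0.58 with DMSO in shlacZ cells. Of these, 50.2% had a more positive difference with DMSO. Among 592 genes called lower there, the median was −0.53 with GW4064 and −0.60 with DMSO, and 67.4% had a more negative difference with DMSO. Of all genes, 55.7% had a larger absolute difference with DMSO, which ignores the sign and is thus not the same measure. The median gap of these lower genes between GW4064 and DMSO was −0.01, 0.16 and 0.05 in experiments 1, 2 and 3. The gap was widest in experiment 2 and near 0 in experiment 1.

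**Figure D5:**
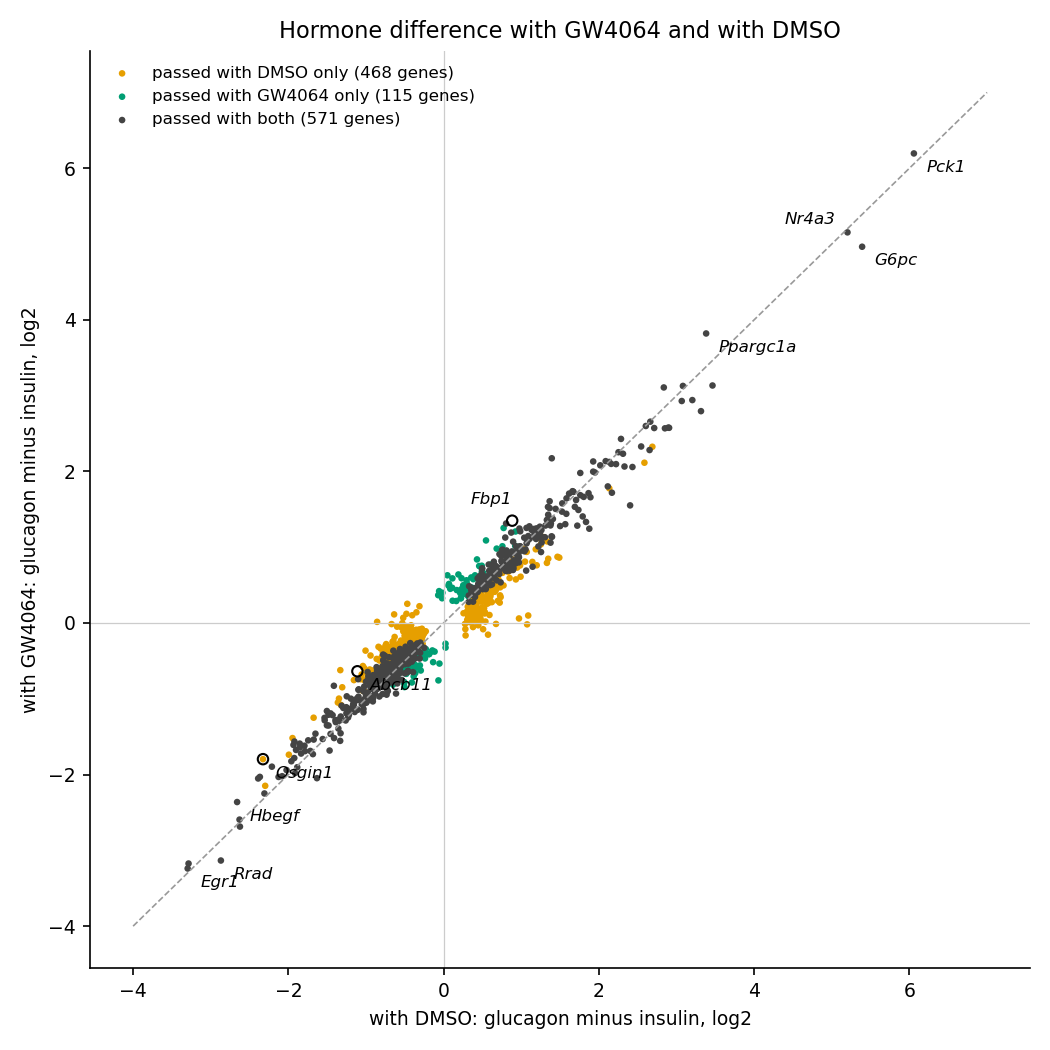
Hormone difference with GW4064 (vertical axis, log2) against that with DMSO (horizontal axis, log2) in control-hairpin cells, for the 571 genes that passed with both (dark grey), the 115 that passed with GW4064 only (green) and the 468 that passed with DMSO only (orange). The dashed line marks equal differences, circles mark Fbp1, Abcb11 and Osgin1, and Pck1 stands at 6.20 with GW4064 and 6.06 with DMSO.

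The same hormones with GW4064 were also compared between the hairpins. Foxa2 averaged 6.90 ± 0.12 under glucagon and 5.76 ± 0.20 under insulin in shFOXA2.3 cells with GW4064 (SD, n = 3 each). In shlacZ cells with GW4064 it averaged 7.31 ± 0.19 under glucagon and 6.14 ± 0.07 under insulin (SD, n = 3 each), so both hairpins showed a higher level under glucagon. The hormone difference of Foxa2 was 1.17 in shlacZ cells and 1.15 in shFOXA2.3 cells, and the 95% interval of the gap between them ran from −0.40 to 0.45. In shFOXA2.3 cells 775 genes passed (3.49%), 304 higher (1.37%) and 471 lower (2.12%), and 513 of the 686 genes passed there too in the same direction. This is 74.8% of the shlacZ list and 66.2% of the shFOXA2.3 list, and 683 of the 686 had the same sign of the mean. For this sign count too the share of all genes is not given. A test of the gap itself called 0 genes (0%) in limma, with and without the block. An unadjusted p below 0.05 was found for 562 genes (2.53%), or 890 once blocked, again below a share of 0.05 of all genes. The smallest unadjusted p of that test belonged to C1qtnf9, Flrt1, Olfr723 and Olfr1480, with gaps of −0.60, −0.79, −0.64 and 0.68. Abcb11 differed between the hormones by −0.64 in shlacZ cells and −0.71 in shFOXA2.3 cells. Fbp1 differed by 1.35 in shlacZ cells and by 1.71 in shFOXA2.3 cells, where its adjusted p was 0.0146, and the 95% interval of the gap ran from −1.51 to 0.79, or from −0.85 to 0.14 blocked by experiment.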

How the data were processed

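Log2 expression values deposited by the authors for 24 Mouse Gene 2.0 ST arrays (8 groups of 3) were analysed. GeneSpring was used, per the series' design text, and the normalization is not given in the sources used here. Of 41345 probe sets, 23521 had 1 gene symbol in the platform annotation, 1814 several and 16010 none. A gene with several probe sets was read from the one with the highest mean, which left 22180 genes.

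The fit was limma 3.58.1 in R 4.3.3 (Python 3.11.15 for figures), with 1 mean per group over all 24 arrays (16 residual degrees of freedom), Benjamini-Hochberg adjustment and a threshold of 0.05. Scripts were tested on simulated data. Array numbers limit the precision. Experiment numbers pair the samples: deviations of same-numbered arrays from their group means correlated at 0.375, 0.458 and 0.475.

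Named genes are the 15 largest rises and falls, Pck1, Fbp1, Abcb11, Foxa2, Nr1h4, list members that passed and up to 4 that did not, and the 4 genes of smallest p per interaction. Other genes are named as levels. Members and lists were chosen with earlier results of these data known. Alternatives were the block, fewer arrays in the fit, scaling, a level filter, averaged probe sets, other eBayes settings, array weights and arrays left out.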

Additional observations from a re-analysis of the deposited data

Results flagged for a closer look

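Probe sets tied to several gene symbols or to none were outside the comparison by gene. Of 17824 such probe sets, 94 passed an adjusted p of 0.05 between glucagon and insulin with GW4064 in limma (0.527%), 46 higher and 48 lower under glucagon. They were singled out because they carry a hormone difference in data that the comparison by gene does not use.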

How the results depend on the processing

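With the experiment as a replicate block, which rests on the pairing of the arrays by number, 1865 genes passed, 868 higher and 997 lower under glucagon. No named call was lost with the block and 42 further named genes passed. Fitting the compared groups only, with fewer arrays to estimate the spread, left 232 genes, 111 higher and 121 lower, and 18 named calls were lost. With arrays or experiments left out the total ran between 174 and 797, the higher genes between 83 and 371 and the lower genes between 91 and 426. The other alternatives gave 552 to 798 genes. Centring gave 255 higher and 423 lower, and quantile normalization 284 higher and 393 lower. Of 62 named genes that passed, 25 passed in all 18 alternatives, and the direction was the same in 2470 of 2474 pairs of gene and alternative. The direction turned for Nr0b2 without experiment 2 (−0.06), without its glucagon array (−0.12) and without the insulin array of experiment 3 (−0.03), and for Cyp2f2 without the insulin array of experiment 2 (−0.037). The cause was not tested. With arrays left out, Nr0b2 ran between −0.12 and 0.28 and Cyp2f2 between −0.037 and 0.81. Both interaction tests called 0 genes in every alternative run. Signal near the floor limits the rest: 59.2% of genes had a mean level under 4.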

Other observations

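The complete cAMP response element TGACGTCA was rarer than its core in the RefSeq promoter windows. It occurred in 1.71% of 234 genes called higher (4 genes), 6.25% of 320 called lower (20 genes) and 2.65% of the 16990 tested genes with a promoter. The genes that were lower under glucagon thus held it more often in this count, which was not tested.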
